A study of Mus musculus with 8 samples.

Results

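Duct and keratin genes were followed in RNA-seq of isolated mouse pancreatic islets. The 9 members, all of which had a row among the 16333 genes of the deposited tables, were taken by gene symbol as named markers of duct cells and simple epithelia: Krt7, Krt8, Krt18, Krt19, Sox9, Cftr, Spp1, Muc1 and Prom1. The study compared islets of NFATc2βKO (KO) mice with islets of wild-type (WT) mice, each treated with cytokines or left untreated. Mice of both genotypes carry the strain label Agouti/C57BL6 and both received tamoxifen as adults, and their ages were not given. In KO mice the tamoxifen-induced deletion of NFATc2, a DNA-binding protein that enters the nucleus when calcineurin dephosphorylates it, was targeted to insulin-expressing cells, so duct, acinar, immune and vessel cells among the islets are outside the targeted population. In WT mice the drug left the gene in place. Hand-picked islets of 2 mice per genotype were kept overnight in 5.5 mM glucose and then divided. Cytokine cultures received a cocktail of IFNγ (50 ng/mL), TNFα (10 ng/mL) and IL1β (5 ng/mL) in 11 mM glucose for 2 h, and untreated cultures stood for the same 2 h. This gave 2 libraries in each of the groups KO untreated, WT untreated, KO cytokines and WT cytokines, and because the labels make high glucose part of the cytokine treatment, the effects of the 2 cannot be told apart. The glucose of the untreated cultures during those 2 h was not stated.

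Keratins form the intermediate filaments of epithelial cells and assemble only as pairs of a type II chain, such as KRT7 or KRT8, with a type I chain, such as KRT18 or KRT19. In the pancreas, KRT8 and KRT18 are made by acinar and duct cells and, in the mouse, also by islet cells, while KRT7 and KRT19 are used as duct markers. Duct cells carry bicarbonate-rich fluid through the chloride and bicarbonate channel CFTR, depend on the transcription factor SOX9, and bear the mucin MUC1 and the membrane glycoprotein PROM1 (CD133) on their apical surface, and SPP1 (osteopontin) is a secreted phosphoprotein of ducts and macrophages.

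On GRCm38 the 3 keratin genes with the highest counts lie on chromosome 15. Krt7 spans chr15:101411043-101430313 on the plus strand, Krt8 chr15:101996698-102004482 on the minus strand and Krt18 chr15:102028180-102032027 on the plus strand. Krt8 and Krt18, partners in the same filament, point away from each other with 23697 bases between them, and 566384 bases separate Krt7 from Krt8. Krt19 (chr11:100140810-100148665, minus) and Sox9 (chr11:112782224-112787760, plus) share chromosome 11, and Prom1 (chr5:43993620-44102032, minus) and Spp1 (chr5:104435118-104441050, plus) share chromosome 5. Cftr spans chr6:18170687-18322768 and Muc1 chr3:89229057-89233381, both on the plus strand. Because the deleted factor is a DNA-binding protein, sequence before annotated starts is shown for the Krt8 and Krt18 pair and for Prom1 and Cftr. Their libraries separated by genotype. Those of Krt7 did too, but its sequence is not printed. The windows are the 250 bases before the start in RefSeq's GRCm38.p6 annotation, cut before the first base that GENCODE M21 places in an exon of the gene. They run along the gene's strand, and capitals mark GGAAA, the core of the NFAT binding motif, or its reverse complement TTTCC. The Prom1 window shown lies inside the gene, before an internal start, since its upstream window is exonic over all 250 bases. Whether the internal window acts as a promoter was not tested.
Krt8, chr15:102004483-102004592, minus: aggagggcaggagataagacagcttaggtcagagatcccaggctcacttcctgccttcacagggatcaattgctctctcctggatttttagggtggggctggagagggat
Krt18, chr15:102027966-102028179, plus: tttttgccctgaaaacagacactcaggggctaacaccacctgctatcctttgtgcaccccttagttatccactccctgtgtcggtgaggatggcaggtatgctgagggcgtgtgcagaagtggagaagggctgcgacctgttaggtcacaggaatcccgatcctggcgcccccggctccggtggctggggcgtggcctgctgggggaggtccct
Prom1, internal start, chr5:44094769-44095018, minus: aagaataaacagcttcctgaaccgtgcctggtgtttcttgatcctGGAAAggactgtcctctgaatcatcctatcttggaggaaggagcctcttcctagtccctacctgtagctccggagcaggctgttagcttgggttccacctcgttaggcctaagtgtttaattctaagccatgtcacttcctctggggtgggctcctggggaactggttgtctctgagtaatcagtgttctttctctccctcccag
Cftr, chr6:18170437-18170686, plus: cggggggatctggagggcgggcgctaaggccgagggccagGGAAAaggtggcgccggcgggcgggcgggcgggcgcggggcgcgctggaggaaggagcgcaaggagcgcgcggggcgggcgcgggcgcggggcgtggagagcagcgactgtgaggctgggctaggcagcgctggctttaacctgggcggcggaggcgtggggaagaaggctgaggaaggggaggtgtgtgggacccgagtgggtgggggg
Searched on both strands over the uncut 250 bases, GGAAA was present 0 times for Krt7 and Krt18 and 1 time for Krt8, where the match falls in the exonic part not printed. Cftr held 1 match, and Prom1 held 0 matches at its upstream start and 1 at the internal start shown. Muc1 held 2 matches, and Spp1 held 1 at each of its annotated starts. Of all 32851 promoter windows in the RefSeq table, 55.6% held at least 1 match, so the presence or absence of these letters does not set the members apart.

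The deposited tables hold group means of normalized counts, that is, reads scaled by the size factor of their library, and the whole reads behind them could be recovered for 16303 genes, all 9 members included. The 8 libraries held 14663899 to 27046196 recovered reads. Counts of 4 Y-linked genes showed that every group contained a female library and a male library, so libraries are named by sex and the 2 libraries of the same genotype and sex were taken to come from the same mouse. Sex and mouse therefore cannot be told apart within a genotype. The deposited tables call the reference genotype Mut, a name no label uses, and it was taken as WT. Nfatc2 itself was lower in the KO library of each of the 4 same-sex pairs, as for 15% of all recovered genes, but in the authors' deposited table the untreated log2 fold change of -0.49 (SE 0.23) had an FDR of 0.903 and that with cytokines of -0.56 (SE 0.24) an FDR of 0.474. The labels do not say which exons were deleted, and cells not targeted also contribute reads.

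Prom1 was the member called in both conditions, with counts in KO islets at 0.358 to 0.545 times those in WT islets of the same sex. Krt8, and to a smaller extent its partner Krt18, had more counts in KO islets, whereas Krt7 had fewer. At an FDR below 0.05, the authors' deposited table called 1 of 9 members in untreated islets, Prom1, against 0.41% of all genes called. With cytokines it called 2 of 9, Krt8 and Prom1, against 0.998% of all genes. Without adjustment, 3 members untreated and 4 with cytokines had p below 0.05, beside 798 and 960 of all 16333 genes. The 4 KO libraries did not overlap the 4 WT libraries for 5 members, below them for Krt7 and Prom1 and above them for Krt8, Krt18 and Cftr, whereas 10.2% of all recovered genes showed no overlap in either direction. Because the untreated and cytokine cultures came from the same mice, the 2 genotype comparisons are not independent. The calls depend on the test: in limma on the recovered reads 0 of 9 members passed untreated and with cytokines (lowest adjusted p 0.538 and 0.295, 0.0123% of all genes called in each), and 0 passed with the libraries of each mouse averaged (lowest adjusted p 0.496), whereas with a term for sex 2 passed untreated, Prom1 and Cftr, against 2.1% of all genes, and 4 with cytokines, Prom1, Krt8, Krt18 and Cftr, against 3.75% of all genes. The p-values of the fit with sex are too small, because the 2 libraries of a mouse share their deviation.

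**Figure D1:**
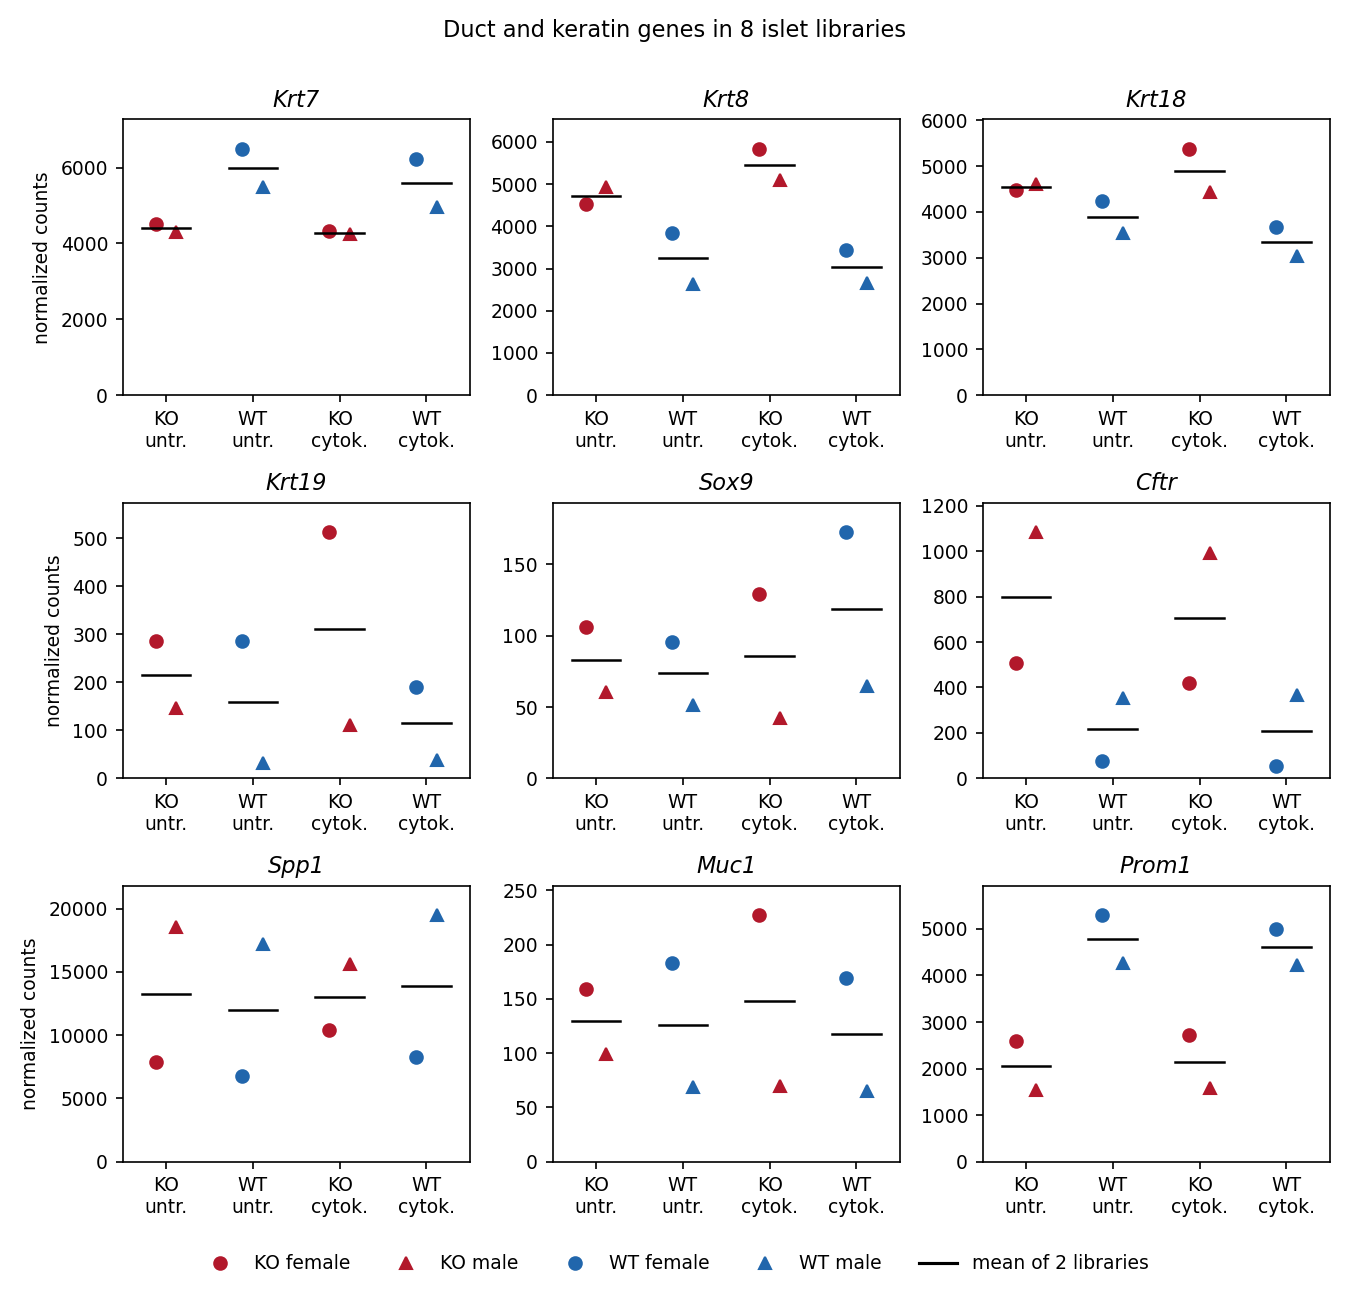
Normalized counts (y axis, linear from 0) of each member in the 8 libraries, grouped along the x axis as KO untreated, WT untreated, KO cytokines and WT cytokines; circles are female and triangles male mice, and bars are means of 2 libraries. The KO points lie below all WT points for Krt7 and Prom1 and above them for Krt8, Krt18 and Cftr. The female point is the higher in all 4 groups for Krt7, Krt19, Sox9, Muc1 and Prom1, by little for Krt7 in KO islets. The male point is the higher in all 4 groups for Cftr and Spp1.

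Prom1 encodes a pentaspan glycoprotein of membrane protrusions and is often used to sort duct and progenitor cells. It had 2588 (female) and 1529 (male) normalized counts in untreated KO islets, against 5295 (female) and 4276 (male) in untreated WT islets. With cytokines it had 2719 and 1578 in KO islets, against 4989 and 4231 in WT islets, in the same order of sex. Every KO library was below every WT library, and the highest KO value, 2719, lay well under the lowest WT value, 4231. In the authors' deposited table Prom1 fell in untreated KO islets by 1.22 on the log2 scale (SE 0.29, FDR 0.0133) and ranked 41 among all genes by p-value. With cytokines it fell by 1.10 in KO islets in the authors' deposited table (SE 0.29, FDR 0.0236). Lower calls were rare, at 0.0551% of all genes untreated and 0.184% with cytokines. Group means were 2058 ± 749 in KO and 4786 ± 720 in WT untreated islets, and 2148 ± 807 in KO and 4610 ± 536 in WT islets with cytokines (SD, n = 2 libraries each). Females exceeded males in every group, by 1.69 and 1.72 times in KO islets and by 1.24 and 1.18 times in WT islets.

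Part of the Prom1 locus is shared with other annotated genes, and no source used here says whether the libraries were stranded. Gm42716, on the same strand, averaged 216 normalized counts and had log2 fold changes close to those of Prom1 in the authors' deposited table, -1.15 untreated (SE 0.40, FDR 0.318) and -1.08 with cytokines (SE 0.40, FDR 0.298). Gm16401, on the opposite strand, averaged 39.0 normalized counts. Of the other members, Krt7, Krt8, Cftr and Spp1 overlap annotated genes that had no row in the tables used here.

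Krt8, the type II chain found in nearly all simple epithelia, ran in the opposite direction to Prom1. Untreated KO islets had 4533 (female) and 4930 (male) normalized counts of Krt8, against 3848 and 2630 in untreated WT islets. With cytokines, Krt8 stood at 5837 and 5089 in KO islets, against 3432 and 2656 in WT islets. All KO libraries exceeded all WT libraries, by 1.18 to 1.92 times within same-sex pairs, and 5.39% of all recovered genes had every KO library above every WT library. With cytokines Krt8 rose in KO islets by a log2 fold change of 0.84 in the authors' deposited table (SE 0.21, FDR 0.00853), where 0.814% of all genes were called higher. Untreated, the authors' deposited table gives 0.55 (SE 0.21, FDR 0.450), which did not pass. GENCODE M21 also annotates a pseudogene, Krt8-ps, on another chromosome, and no source used here says how reads matching both copies were counted.

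Krt18 is the type I partner of Krt8. It had 4470 and 4611 normalized counts in untreated KO islets, against 4245 and 3548 in untreated WT islets, in the order female and male. Krt18 had 5375 and 4427 in KO islets with cytokines, against 3664 and 3034 in WT islets with cytokines. The KO libraries again lay above all WT libraries, but in untreated females by only 1.05 times. In the authors' deposited table the Krt18 log2 fold change was 0.22 untreated (SE 0.16, FDR 1.00) and 0.55 with cytokines (SE 0.16, FDR 0.0696), neither of which passed.

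Krt7, a type II chain like Krt8, was lower in KO than in WT libraries. It had 4516 and 4305 normalized counts in untreated KO islets, against 6494 and 5489 in untreated WT islets, females first. With cytokines the Krt7 counts were 4321 and 4238 in KO islets, against 6234 and 4970 in WT islets. The KO libraries were close together and all below the WT libraries, a pattern of 4.77% of all recovered genes. In the authors' deposited table the log2 fold change of Krt7 was -0.44 untreated (SE 0.15, FDR 0.292) and -0.39 with cytokines (SE 0.15, FDR 0.366), so neither passed the adjustment over all genes.

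The balance between Krt7 and Krt8 counts separated the genotypes in these 8 libraries. This follows from all KO libraries lying below WT for Krt7 and above WT for Krt8, and is not a separate result. The ratio of Krt7 to Krt8 normalized counts was 0.996 (female) and 0.873 (male) in untreated KO islets, against 1.69 and 2.09 in untreated WT islets. With cytokines this ratio was 0.740 and 0.833 in KO islets, against 1.82 and 1.87 in WT islets. All KO libraries held fewer Krt7 than Krt8 counts, and all WT libraries held more. Since the lengths of the genes are not divided out, the ratio compares libraries and not the amounts of the chains. The ratio of Krt8 to Krt18, type II to its type I partner, varied less: 1.01 and 1.07 in untreated KO islets, against 0.907 and 0.741 in untreated WT islets, and 1.09 and 1.15 in KO islets with cytokines, against 0.937 and 0.875 in WT islets with cytokines.

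**Figure D2:**
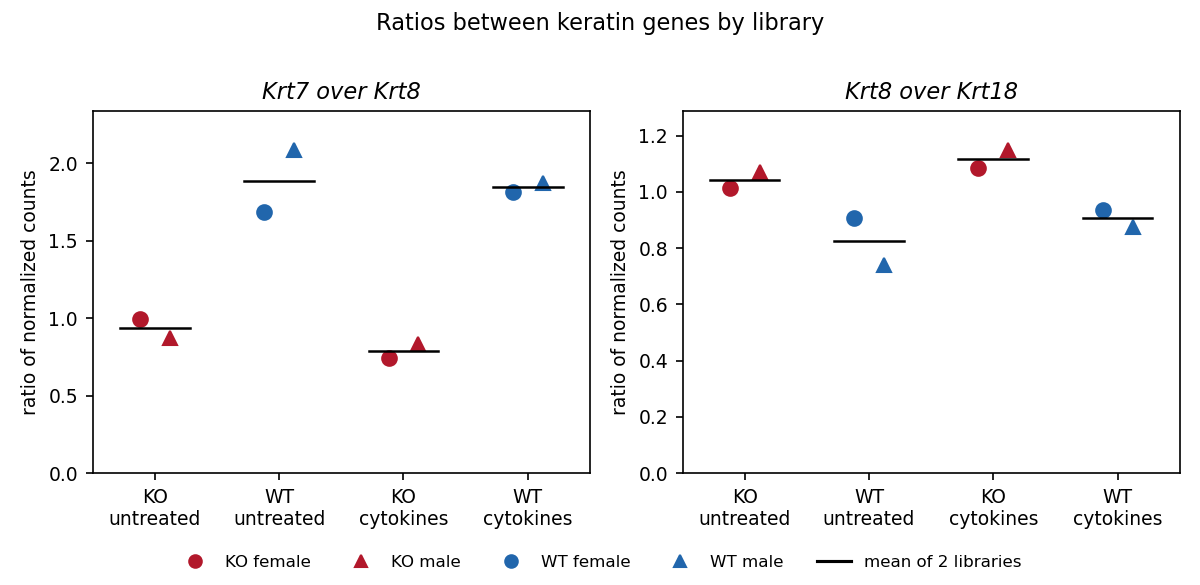
Ratio of normalized counts (y axis, linear from 0) of Krt7 over Krt8, left, and of Krt8 over Krt18, right, in each library; circles are female and triangles male mice, and bars are means of 2 libraries. Krt7 over Krt8 is below 1 in the 4 KO libraries and at least 1.69 in the 4 WT libraries, and Krt8 over Krt18 is above 1 in KO and below 1 in WT libraries.

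Acinar cells also make Krt8 and Krt18, and acinar markers moved with genotype in the same pairs. Of 25 acinar genes 22 had a row, and the summed normalized counts of the 21 recovered were 24122 to 121592 in KO libraries and 7710 to 65484 in WT libraries. No summed acinar gene was at 0 in any library, and the KO sum was the higher in each of the 4 same-sex pairs. For KO over WT the authors' deposited table called 0 of the 22 acinar genes in each condition. Their unadjusted p was below 0.05 for 0 untreated and 3 with cytokines, beside 798 and 960 of all 16333 genes. Positive log2 fold changes were seen for 20 untreated and 22 with cytokines, with medians of 0.40 and 2.02. Over all genes the medians were -0.0040 untreated and -0.0032 with cytokines. The limma fit with a sex term, which called Krt8 and Krt18 with cytokines, called 1 acinar gene higher untreated and 12 with cytokines. In untreated females the acinar sum was 72780 in KO and 65484 in WT islets, with Krt8 at 4533 and 3848. In untreated males it was 33634 and 10336, with Krt8 at 4930 and 2630. With cytokines the female sums were 121592 in KO and 30347 in WT islets, with Krt8 at 5837 and 3432. The male sums were 24122 and 7710, with Krt8 at 5089 and 2656. Across the 8 libraries, Pearson's r with the acinar sum on the log2 scale was 0.79 for Krt8, 0.87 for Krt18 and -0.14 for Krt7, given as a description because the libraries share 4 mice. The part of acinar RNA in the keratin differences was not tested. In bulk islets, fewer cells of a type and less RNA per cell cannot be told apart.

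Markers of further cell types separated the genotypes too. The summed counts of 4 endothelial genes were 2828 to 3708 in KO libraries and 4584 to 6180 in WT libraries, the direction of Prom1 and Krt7. Those of 8 macrophage genes were 3113 to 4521 in KO libraries and 1953 to 2476 in WT libraries, the direction of Krt8, Krt18 and Cftr. The sums of 10 stromal genes were 5029 to 13958 in KO and 1649 to 10641 in WT libraries, higher in KO in each of the 4 same-sex pairs, by 1.31 to 5.30 times, with an overlap made by the WT female with cytokines. Untreated, all 10 stromal genes had positive KO over WT log2 fold changes, with a median of 2.34, beside -0.0040 over all genes. The authors' deposited table called 1 of them untreated and the sex-term limma fit 6, while with cytokines they called 0 and 0. No gene of these lists was at 0 in any library, and their part in the member values was not tested.

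Cftr, the apical chloride and bicarbonate channel, had the highest KO to WT ratio within a sex of all members, together with a wide spread between the sexes. It had 508 (female) and 1084 (male) normalized counts in untreated KO islets, against 78.4 and 353 in untreated WT islets. With cytokines Cftr had 420 and 991 in KO islets, against 53.2 and 367 in WT islets. The KO libraries lay above the WT libraries throughout, and within same-sex pairs the KO to WT ratio was 2.70 to 7.89. The 2 libraries of a group differed strongly, males exceeding females by 2.13 to 6.89 times. In the authors' deposited table the Cftr log2 fold change had a wide error, 1.88 untreated (SE 1.19, FDR 1.00) and 1.75 with cytokines (SE 1.19, FDR 1.00), and did not pass. A limma fit with a term for sex gave 2.15 untreated (SE 0.37, adjusted p = 0.0340) and 2.19 with cytokines (SE 0.37, adjusted p = 0.0238). With the libraries of each mouse averaged, Cftr had a log2 fold change of 2.17 (SE 0.87, limma adjusted p = 0.845).

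Spp1, the secreted phosphoprotein, had the highest level per length of the members and shared with Cftr a male excess. Its counts were 7868 (female) and 18555 (male) in untreated KO islets, against 6777 and 17192 in untreated WT islets. Those with cytokines were 10374 and 15638 in KO islets, against 8295 and 19476 in WT islets. Males exceeded females by 1.51 to 2.54 times in every group, and KO and WT libraries overlapped. In the authors' deposited table its KO over WT log2 fold changes were 0.14 (SE 0.76) and -0.09 (SE 0.76) and did not pass. Over all recovered genes, 19.5% had the male library above the female in all 4 groups.

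Krt19, the type I keratin most used as a duct marker, had the highest ratio between the sexes of all members. It had 285 (female) and 146 (male) normalized counts in untreated KO islets, against 286 and 32.1 in untreated WT islets. Krt19 with cytokines had 513 and 110 in KO islets, against 191 and 39.2 in WT islets. The 2 untreated females had nearly equal values, so the KO excess over WT in untreated islets stood in the males. Within same-sex pairs the KO to WT ratio was 0.997 to 4.56, and females exceeded males by 1.95 to 8.91 times. The acinar sum was also higher in the female library of every group. Untreated it was 72780 (female) against 33634 (male) in KO and 65484 against 10336 in WT islets. With cytokines it was 121592 against 24122 in KO and 30347 against 7710 in WT islets. The part of acinar RNA in the Krt19 split was not tested. The authors' deposited table gives KO over WT log2 fold changes of 0.44 untreated (SE 1.35) and 1.44 with cytokines (SE 1.35), with FDR of 1.00 for both.

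Muc1, a transmembrane mucin of the apical surface, followed the same sex pattern. Muc1 counts were 159 and 99.1 in untreated KO islets, against 183 and 68.8 in untreated WT islets, females first. With cytokines they were 227 and 69.6 in KO islets, against 169 and 65.0 in WT islets. Sox9, the transcription factor of the duct programme, had 106 and 60.6 in untreated KO islets, against 95.7 and 51.6 in untreated WT islets. Its counts with cytokines were 129 and 42.5 in KO islets, against 173 and 65.0 in WT islets. Genotypes overlapped for both genes, and none of their log2 fold changes between genotypes, from -0.47 to 0.34 in the authors' deposited table with SE of 0.65 to 0.66, passed the test. The female library was the higher in all 4 groups for Krt7, Krt19, Sox9, Muc1 and Prom1, as for 19.8% of all recovered genes.

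**Figure D3:**
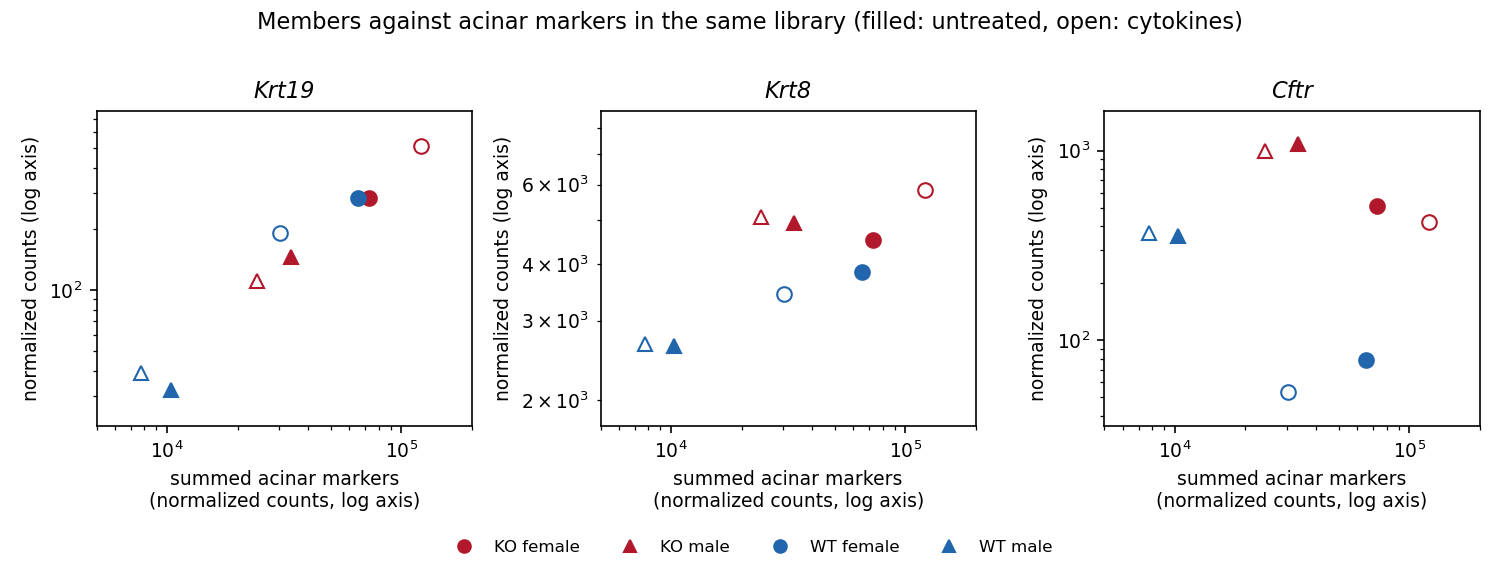
Normalized counts of Krt19, Krt8 and Cftr (y axes, log) against the summed normalized counts of 21 acinar genes in the same library (x axis, log); red is KO, blue is WT, circles are female, triangles male, filled points untreated and open points cytokines. Krt19 lies along a line with the acinar sum across all 8 libraries. Krt8 has every KO point above every WT point and does not follow 1 line, since it runs downward over the 3 KO libraries with the smaller acinar sums. Cftr has every KO point above every WT point and, within a genotype, the male points above the female, without following the acinar sum.

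Krt19 tracked the acinar sum closely from library to library, with r of 0.98 across the 8 libraries on the log2 scale. For Muc1 r was 0.89 and for Sox9 0.59, whereas it was -0.10 for Cftr, -0.19 for Prom1 and -0.73 for Spp1. Among the members themselves, r was 0.95 between Krt8 and Krt18, 0.92 between Krt19 and Muc1 and 0.87 between Sox9 and Muc1. Krt7 ran with Prom1, at 0.89, and against Cftr, at -0.93. The 9 genes thus did not vary as a single block across the libraries. These values describe 8 libraries of 4 mice.

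The cytokine comparison asked whether 2 h of stress shifted these genes. The authors' deposited tables called 0 of 9 members in KO islets, against 0.0429% of all genes, and 0 of 9 in WT islets, against 0.0122% of all genes. No member had an unadjusted p below 0.05 in either genotype, beside 166 genes in KO and 150 in WT islets of all 16333. A limma fit with each mouse as a block called 0 in both. There 1 member in KO and 2 in WT islets had an unadjusted p below 0.05. In that fit 0.123% of all genes were called in KO and 0.153% in WT islets. In KO islets the log2 fold changes of cytokines over untreated lay between -0.16 for Cftr and 0.61 for Krt19 in the authors' deposited table. In WT islets the same table gives -0.42 for Krt19 to 0.69 for Sox9. Within mice the cytokine to untreated ratio stayed narrow for Krt7, at 0.906 to 0.984, and for Prom1, at 0.942 to 1.05, while it was 0.669 to 1.80 for Krt19. The 95% interval in the authors' deposited table was -0.34 to 0.25 for Krt7 and -0.54 to 0.66 for Prom1 in KO islets, but -2.22 to 3.45 for Krt19. By that table, a change of 1 on the log2 scale would fall outside the interval for only some members. The width depended on the fit. For Krt19 in KO islets the SE was 1.45 in the authors' deposited table and 0.29 in the limma fit with a mouse block.

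The difference between the genotypes in the cytokine response was tested for each gene from the 2 deposited fold changes. No member passed (adjusted p = 1.00 for each of the 9), as for 0% of all genes, and none had an unadjusted p below 0.05. For Krt18 the KO response minus the WT response was 0.33 (SE 0.25), and for Krt8 it was 0.30 (SE 0.28). Krt8 within mice had cytokine to untreated ratios of 1.29 (female) and 1.03 (male) in KO islets, against 0.892 and 1.01 in WT islets. The limma fit with a mouse block also called 0, with unadjusted p below 0.05 for Krt8 and Krt18 and adjusted p = 0.998.

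**Figure D4:**
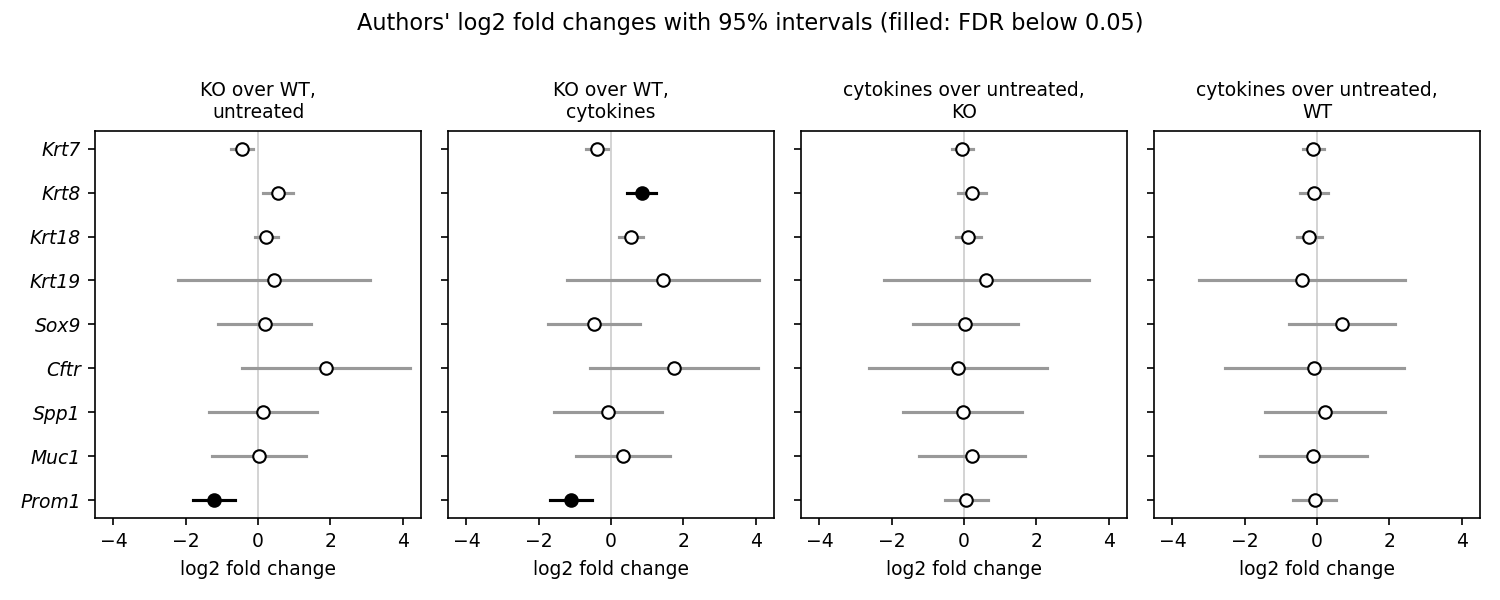
Log2 fold changes (x axis) of each member (y axis) in the authors' 4 comparisons, with 95% intervals from the fold change and its Wald statistic; filled points have an FDR below 0.05. Prom1 is filled and below 0 in both genotype comparisons, Krt8 is filled and above 0 with cytokines, and no point is filled in the cytokine comparisons.

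The order of the members by level was set per kilobase of merged exons, as the mean ± SD of normalized counts per kilobase over the 8 libraries. Spp1 stood first with 7902 ± 3173, above Krt18 with 2903 ± 509 and Krt8 with 2104 ± 599. Krt7 followed with 719 ± 128, then Prom1 with 474 ± 208. The 4 others were far lower, with 108 ± 85.8 for Krt19, 62.0 ± 48.7 for Cftr, 55.5 ± 26.6 for Muc1 and 21.9 ± 10.8 for Sox9. The ranges of mean ± SD overlapped between neighbours for Krt18 and Krt8, for Krt7 and Prom1, and among the 4 lowest genes in sequence, and did not overlap between Spp1 and Krt18, Krt8 and Krt7, or Prom1 and Krt19. The rank of Cftr over Muc1 came from the KO islets: per kilobase, Cftr averaged 103 untreated and 90.8 with cytokines in KO islets and Muc1 55.1 and 63.2, whereas in WT islets Cftr averaged 27.8 and 27.0 and Muc1 53.8 and 50.0. With the length of the principal transcript, Krt7 had 1239 ± 221 and Prom1 928 ± 406 normalized counts per kilobase, with the order of the 9 kept. The duct genes Krt19 and Sox9 thus stood well below Krt8 and Krt18, the keratins that acinar and islet cells share. Krt7, also used as a duct marker, stood between them, and Spp1 above all.

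Of 38 further genes of the duct programme 30 had a row, and the authors' deposited tables called 0 of them in each of the 4 comparisons. In KO over WT their unadjusted p was below 0.05 for 2 genes untreated and 4 with cytokines. Over all 16333 genes these counts were 798 and 960. The sex-term limma fit called 1, Clu, higher with cytokines, a gene named here after its value was seen. The median log2 fold change of the further duct genes for KO over WT was 0.17 untreated and 0.03 with cytokines. It was -0.0040 and -0.0032 over all genes. The lowest p-values were those of Tspan8, a tetraspanin, at 0.49 untreated (SE 0.16, FDR 0.222), and of the doublecortin-domain gene Dcdc2a, at -0.82 with cytokines (SE 0.27, FDR 0.156), both from the authors' deposited table. Dcdc2a had 442 and 272 normalized counts in untreated KO islets, against 532 and 523 in untreated WT islets. Its counts with cytokines were 370 and 264 in KO islets, against 553 and 562 in WT islets. All KO libraries thus lay below all WT libraries, as for 4.77% of all recovered genes. Dcdc2a was named for its low p-value between genotypes, which favours such a separation.

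Of 13 keratin partner genes, among them genes of desmosomes, 12 had a row. By the authors' deposited tables, or by the limma fits with a sex term or a mouse block, 0 were called in any comparison. In each genotype comparison of the deposited tables, 1 had an unadjusted p below 0.05. Over all 16333 genes it was 798 untreated and 960 with cytokines. The desmosome-associated gene Perp came nearest in the authors' deposited table, with log2 fold changes of 0.61 untreated (SE 0.21, FDR 0.318) and 0.57 with cytokines (SE 0.21, FDR 0.280). Perp counts were 367 and 390 in untreated KO islets, against 243 and 252 in untreated WT islets, and 445 and 382 in KO islets with cytokines, against 242 and 312 in WT islets with cytokines. The KO libraries of Perp all exceeded the WT libraries, as for 5.39% of all recovered genes. Perp was named for its low p-value between genotypes, which favours such a separation. The 5 other keratins with a row, Krt10, Krt20, Krt23, Krt80 and Krt222, had 0 calls in the authors' deposited tables and in the same limma fits, with 1 unadjusted p below 0.05. That p belonged to Krt23, at 2.37 with cytokines (SE 1.17) in the authors' deposited table.

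Notch and Hippo genes, which regulate the duct programme, had 15 of 16 with a row and 0 calls in the authors' deposited tables. For KO over WT, 1 had an unadjusted p below 0.05 untreated and 3 with cytokines, beside 798 and 960 of all 16333 genes. The sex-term limma fit called 1, Amotl2, lower with cytokines, a gene named after its value was seen. Hey1, a Notch target, was nearest in the deposited test, with -1.64 for KO over WT with cytokines in the authors' deposited table (SE 0.50, FDR 0.0833). In WT islets all 15 had positive cytokine over untreated log2 fold changes, with a median of 0.26, beside 0.0028 over all genes. So did all 10 stromal, 8 macrophage and 4 endothelial genes and 24 of the 30 further duct genes. Of the acinar genes 21 of 22 were negative, as were all 6 beta cell genes. In the WT female, stromal marker counts were 10641 with cytokines and 1993 untreated, and Sox9 was 173 and 95.7 in the same libraries. In the WT male they were 2206 with cytokines and 1649 untreated, with Sox9 at 65.0 and 51.6. The part of stromal cells in either value was not tested.

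The genes whose profiles were most like those of 4 members were listed by Pearson's r of log2 counts over the 8 libraries, with genes averaging 100 or more as the candidates. Krt8 was closest to Rab11fip1 and Scel, at 0.99 for both, with 11 genes at 0.95 or more. Krt19 was closest to Itgb4, the integrin of hemidesmosomes, and to Pnliprp2, an acinar lipase, both at 0.99, with 39 genes at 0.95 or more. For Sox9 these were Slc22a5 and Ptk7, both at 0.99, and for Prom1 Cntnap2 and Phactr1, both at 0.99, with 77 genes at 0.95 or more for Prom1. Over 8 libraries from 4 mice many genes reach such values, and they are given as a description.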

How the data were processed

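RNA from islets of 2 KO and 2 WT mice, each in 2 cultures, was sequenced as 8 libraries. Per the submitters' processing notes HISAT2, HTSeq, DESeq2 and the build GRCm38 were used, with versions and roles not given in the sources used here. The authors deposited 4 comparison tables. The deposited signal columns are means of counts divided by a size factor, and the deposited log2 fold change, score (a Wald statistic), p-values and FDR come from the authors' model. Standard errors were obtained by dividing the log2 fold change by the score, and a gene was called at FDR below 0.05 over all 16333 genes. The smallest overall mean was 23.2, so low genes had been removed before deposit.

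Each group mean is a sum of 2 whole read counts, each times a fixed step. A unique solution met the printed digits for 16088 genes, and 215 more, Spp1 among them, were settled by the mean over all libraries (relative tolerance 1e-13). For 30 genes the reads were not settled. The recovery and the fits were tested on simulated data. Within genotypes, deviations of untreated and cytokine libraries from their group means correlated at 0.777 in KO and 0.781 in WT mice when matched by sex, and islets of each mouse were split according to the labels, so sex was used for pairing. Replicate numbers in the labels could not be tied to recovered libraries. With 2 mice per genotype, p-values over libraries measure little of the spread between animals.

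limma 3.58.1 in R 4.3.3 was fitted to log2(normalized count + 1) of 16303 recovered genes, with Benjamini-Hochberg adjustment, without a block, with mouse as block, with a sex term, and on mouse means. Other settings were a pseudocount of 5, total-count and upper-quartile scaling, a mean of at least 50, voom weights, an FDR below 0.1, and leaving out each mouse. The interaction was the difference of the deposited cytokine fold changes over the root of the summed squared SEs, two-sided normal, adjusted over all genes. Positions and lengths are from GENCODE M21, in which 22 identifiers had no match. Promoters are from RefSeq (GRCm38.p6): 7 members matched, and Krt19 and Sox9 did not. All 9 members are named, and of other lists the called genes and the 2 with the smallest p per comparison, of which fewer are given. Members and lists were chosen with earlier results of these data known. Some list genes without a row were not analysed here, such as Ctrc, Rbpjl and Ptf1a of the acinar list.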

Additional observations from a re-analysis of the deposited data

Results flagged for a closer look

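Sox9 had KO over WT ratios in opposite directions untreated and with cytokines. Within same-sex pairs the KO to WT ratio was 1.11 (female) and 1.18 (male) untreated, and 0.749 and 0.653 with cytokines. The difference of mean log2 ratios, cytokines minus untreated, was -0.70. It was drawn out because every pair moved the same way within a condition. In the limma fit with a mouse block this difference had an unadjusted p of 0.065 and an adjusted p of 0.998. The interaction from the deposited fold changes, which addresses the same difference, was -0.65 (SE 1.05, adjusted p = 1.00).

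Prom1 had cytokine responses in opposite directions in the genotypes. The cytokine to untreated ratio was 1.05 (female) and 1.03 (male) in KO mice, against 0.942 and 0.990 in WT mice. The difference of mean log2 ratios, KO minus WT, was 0.11. In the limma fit with a mouse block it had an unadjusted p of 0.16 and an adjusted p of 0.998. From the deposited fold changes it was 0.12 (SE 0.43, adjusted p = 1.00).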

How the results depend on the processing

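The number of members called for KO over WT depended on the test. Against 1 untreated and 2 with cytokines in the deposited tables, limma called 0 in both without a block, with a pseudocount of 5, under total-count or upper-quartile scaling, with a mean of at least 50, with voom weights and on mouse means (an alternative chosen after seeing the data), 0 to 0 in both when each mouse was left out, and 2 and 4 with a sex term. With an FDR below 0.1 the deposited tables call 1 and 3, and adjusting the authors' p over genes with a mean of at least 50 left 1 and 2. Over all genes limma called 2 and 2 without a block and 342 and 611 with a sex term, against the authors' 67 and 163. With the mouse as replicate block, 0 members were called in the cytokine comparisons of both genotypes, as in every other fit, while over all genes 20 in KO and 25 in WT were called, against the authors' 7 and 2.

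Of 36 log2 fold changes of members, 21 kept their sign in every alternative, and none of the 47 reversed values belonged to a called change. Mouse means pool the untreated and cytokine libraries of each mouse, so their single KO over WT value stood beside both conditions. It estimates neither condition alone. For Sox9 it was -0.16, counted as reversed beside the untreated value. The Sox9 cytokine response in KO was reversed at -0.19 to -0.10. It was -0.11 without and with the block and with a mean of at least 50 or total-count scaling. With a pseudocount of 5 and upper-quartile scaling it was -0.10, and with voom -0.19. The Muc1 cytokine response in KO was -0.093 with voom. For Spp1, KO over WT with cytokines was 0.0030 without a block, with a sex term and with a mean of at least 50, 0.0029 with a pseudocount of 5, 0.0034 with voom and 0.083 on mouse means, and its cytokine response in KO was 0.074 under total-count scaling, 0.086 under upper-quartile scaling and 0.076 in the other fits, also without either WT mouse. The cause was not tested. With each mouse left out in turn, KO over WT untreated was -0.48 to 2.63 for Krt19, -0.54 to 0.86 for Muc1 (reversed at -0.54 and -0.18), -0.25 to 0.63 for Sox9 (reversed at -0.25 and -0.21) and -0.51 to 0.83 for Spp1 (reversed at -0.51 and -0.46). With cytokines it was -0.59 to 1.10 for Muc1 (reversed at -0.59 and -0.43), -1.30 to 0.28 for Sox9 (reversed at 0.19 and 0.28) and -0.61 to 0.62 for Spp1 (reversed at 0.30 and 0.62). The cytokine response in KO was -0.059 to 0.27 for Krt18, -0.40 to 0.85 for Krt19, -0.50 to 0.51 for Muc1, -0.50 to 0.29 for Sox9 and -0.25 to 0.40 for Spp1, and in WT -0.55 to 0.054 for Cftr, -0.58 to 0.28 for Krt19 and -0.17 to 0.014 for Krt8. With a mouse left out, 1 arm rests on a lone mouse assumed to vary like the others. Both the number of mice, 2 per genotype, and depth limit the precision, and the lowest count of a member in any library was 28 reads, for Krt19.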

Other observations

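Proliferation markers were among the strongest genotype differences of the lists set beside the duct genes. Of 5 listed genes 4 had a row, and Mki67, Top2a and Kif11, a proliferation antigen, a topoisomerase and a mitotic kinesin, rose in KO islets in both conditions. In the authors' deposited table their KO over WT log2 fold changes were 1.84, 1.67 and 2.25 untreated and 1.96, 1.95 and 1.80 with cytokines. The summed counts of the 4 genes were 981 to 1460 in KO libraries and 306 to 409 in WT libraries. Which cells of the preparation these transcripts came from was not tested.

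Among markers of other cells, the authors' deposited tables called Lyz2 higher in KO islets in both conditions and the leukocyte gene Ptprc with cytokines. They called the matrix proteoglycan gene Dcn higher untreated, and the endothelial genes Pecam1, Cdh5 and Kdr lower with cytokines. Of 8 mesothelial markers 2, Msln and Gpm6a, had a row, with 0 calls in the authors' deposited tables, while the sex-term limma fit called Gpm6a higher in KO islets in both conditions. The authors' deposited tables called 0 beta and 0 alpha cell genes in the 4 comparisons, as did the limma fits with a sex term or a mouse block. Ppy, the pancreatic polypeptide gene, fell with cytokines in KO islets, relative to untreated KO islets, by 0.84 on the log2 scale in the authors' deposited table (SE 0.16, FDR 0.000475).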
